A study of Mus musculus with 8 samples.

Results

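The fibroblast growth factor (FGF) family of the mouse neocortex was examined here as 33 genes: 22 genes named Fgf, the receptors Fgfr1 to Fgfr4, and the feedback inhibitors Spry1 to Spry4 and Spred1 to Spred3. They are all the genes whose symbol is Fgf, Fgfr, Spry or Spred followed by a number and nothing else, out of 19938 genes that the array's annotation names singly. All 33 such symbols in the mouse gene table had a value. The rule itself uses names and no measured level, though the family was picked for description with earlier results of these arrays known.

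Expression was measured with Affymetrix Mouse Gene 1.0 ST arrays in total RNA from laser-captured layers II-IV of the neocortex of 8 pups at postnatal day 5, with 1 array per pup. All 8 pups carried Bcl6 flox/flox. The 4 controls were Nex +/+ and the 4 mutants were Nex Cre/+, so Cre was made from the locus of Nex (Neurod6), which is active in excitatory neurons of the cortex, and other cells in the captured tissue keep Bcl6. No group carried Cre without a floxed target, so the Cre allele and the loss of Bcl6, a transcriptional repressor, cannot be told apart. Per its title, the study concerns a pathway through Bcl11a and Bcl6 and the neurons lost as the cortex develops.

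FGFs are secreted proteins that bind receptor tyrosine kinases together with heparan sulfate on the cell surface. The receptors pass the signal through adaptor proteins to Ras and the kinase ERK. ERK in turn induces ETS factors, dual-specificity phosphatases and Sprouty genes, and the Sprouty and Spred proteins act back on Ras and so limit the response. In the cortex FGFs pattern the early area map, keep progenitors dividing, and act later on glia and synapses. The intracellular members Fgf11 to Fgf14, the FGF homologous factors, are not secreted and bind voltage-gated sodium channels.

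Values below are log2 expression as deposited, 1 probe set per gene, and a difference is the mutant mean minus the control mean on that scale. Where 4 values stand in a row they belong to replicates 1 to 4 of the group, in that order. A level of one gene is not set against the level of another as an amount, since probe sets differ in brightness. In whole captured tissue, fewer cells of a type and less RNA per cell cannot be told apart.

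The labels and the tissue were checked on the whole arrays. Bcl6 itself read higher, not lower, with the mutant label (6.40 ± 0.18 in controls and 6.78 ± 0.14 in mutants, SD, n = 4). Its groups did not overlap, and its adjusted p in limma was 0.655. It is not known here whether the Bcl6 probe set lies in the deleted part, so every direction below rests on the labels. Neurod6, the locus that carries Cre, read 9.22 ± 0.13 in controls and 8.83 ± 0.17 in mutants, with no overlap and an adjusted p of 0.535 in limma. The mean level of 5 markers of layers II-IV was 8.87 to 9.43 on control arrays and 9.16 to 9.38 on mutant arrays, and that of 5 markers of layers V-VI was 5.96 to 6.08 and 5.99 to 6.14, so both lists overlapped between genotypes. Levels of different probe sets do not show which layers were captured. Xist was high in mutant replicates 1 and 4 only (9.78 and 9.76, against 2.64 to 3.41 on the other 6 arrays), and these were also the arrays lowest in the Y-linked Eif2s3y, Kdm5d and Uty. By these genes mutant replicates 1 and 4 read as female, and mutant replicates 2 and 3 and all 4 controls as male. Sex is thus not balanced between the genotypes, and the fits hold no term for it. Values without these arrays are given where they bear on a result.

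None of the 33 genes passed the threshold, an adjusted p under 0.05 over all genes in limma, a linear model that pools variance information across genes. The share of all genes past it was 0.0652%, or 13 genes. At an unadjusted p under 0.05 there were 4 members, Fgf10, Fgf12 and Spry3 lower and Fgf9 higher in mutants, which is 12.1% of the family beside 4.91% of all genes (3.28% lower and 1.64% higher). Groups did not overlap in 2 members, Fgf10 and Fgf12, or 6.06% of the family beside 2.75% of all genes. Both were lower in mutants. Over all genes, 1.79% did not overlap and were lower, and 0.963% did not overlap and were higher. Differences were positive in 15 members and negative in 18, and their median was -0.014, beside -0.0096 over all genes. Only Fgf10 differed by more than 0.2 in either direction, and the SE of the members' differences ran from 0.058 to 0.12.

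**Figure D1:**
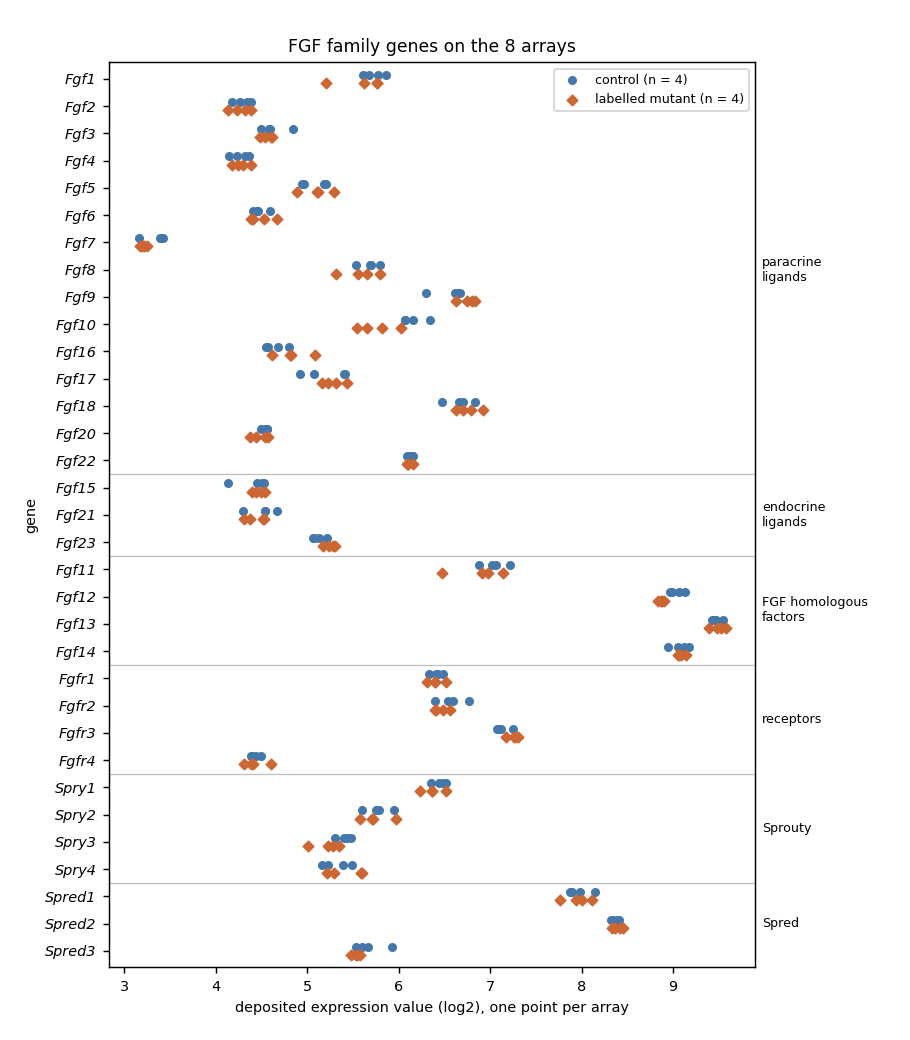
Deposited log2 expression (x axis) of the 33 FGF family genes (y axis, grouped by role), with a point per array for 4 control pups (circles) and 4 pups labelled mutant (diamonds). Control and mutant points overlap in 31 genes and stand apart in Fgf10 and Fgf12.

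The secreted ligands are the first role, with 15 that act locally and 3 that act as hormones. None passed the threshold, 9 differences were positive and 9 negative, and the median was -0.0034. Of the 18 ligands, 12 read below the median level of all genes, 5.55, and no detection calls show whether dim ligands were expressed.

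Fgf10 showed the largest difference of the family. Fgf10 is a growth factor best known for signalling from mesenchyme to epithelium in the lung and limb, through a splice form of Fgfr2. It read 6.16, 6.07, 6.07 and 6.34 in controls and 5.82, 5.65, 5.54 and 6.03 in mutants. Every mutant value lay below every control value, with 6.03 the highest mutant value and 6.07 the lowest control value. After quantile normalization the groups overlapped. The means were 6.16 ± 0.13 and 5.76 ± 0.21 (SD, n = 4), which differ by -0.40 ± 0.10 (SE; 95% interval -0.62 to -0.18), or 1.32-fold in favour of controls. The exact permutation p was 0.0286, two-sided, which is the smallest that 4 against 4 arrays allow, while the adjusted p in limma was 0.655. Over 18 alternatives of processing the difference lay between -0.56 and -0.33, and the adjusted p between 0.242 and 0.985. The value of -0.56 was that without mutant replicates 1 and 4 together, with an unadjusted p of 0.000176 and an adjusted p of 0.351 in limma.

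The stretch of 250 bases before the Fgf10 start is shown because Fgf10 had the largest difference of the family and Bcl6 acts on promoters. It is at chr13:118714449-118714698 on the plus strand of GRCm38.p6, from RefSeq, printed 5′ to 3′ in lower case.

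Fgf10 upstream: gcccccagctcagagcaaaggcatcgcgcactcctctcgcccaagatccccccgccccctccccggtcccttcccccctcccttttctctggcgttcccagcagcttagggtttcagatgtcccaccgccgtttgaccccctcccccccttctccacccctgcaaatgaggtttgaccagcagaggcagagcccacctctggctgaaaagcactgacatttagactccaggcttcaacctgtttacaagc

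G and C make up 61.2% of it. The letters TTCCNNGAA, the core of the BCL6 site, were searched on both strands in windows from 250 bases before to 50 after each start. They were in 0 of the 31 windows of 24 family members that the table holds, and in 4.81% of 32851 windows of all genes. This says only that these letters are not in these windows.

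Markers of mural, fibroblast and meningeal cells, which make several ligands of this family in other tissues, were read beside Fgf10. Of 8 such markers 6 were lower in mutants, beside 11047 of all 19938 genes. None passed and 1, Dcn, had an unadjusted p under 0.05 in limma (-0.55 ± 0.25, SE), beside 4.91% of all genes. The 2 higher ones were Pdgfrb (0.14 ± 0.08, SE) and Col1a1 (0.0038 ± 0.090). Rgs5 and Kcnj8, counted as lower, differed by less than their SE (-0.01 ± 0.09 and -0.03 ± 0.09). Dcn, a collagen-binding proteoglycan, read 4.61 in control replicate 1, 3.20 to 3.54 in the other controls and 2.72 to 3.34 in mutants. The mean level of the 8 markers was 5.35 to 5.77 on control arrays and 5.28 to 5.51 on mutant arrays, so the groups overlapped. The part of these cells in the Fgf10 difference was not tested.

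Fgf9, a ligand made by neurons that activates glia, was the only member higher in mutants at an unadjusted p under 0.05. The Fgf9 probe set read 6.61, 6.65, 6.67 and 6.30 in controls and 6.75, 6.81, 6.84 and 6.62 in mutants. Control replicate 4 was the lowest array, and mutant replicate 4 lay inside the control range. Means were 6.56 ± 0.17 and 6.75 ± 0.10 (SD, n = 4), a difference of 0.20 ± 0.09 (SE). The unadjusted p was 0.0469 and the adjusted p 1.00 in limma, and the exact permutation p was 0.0857, two-sided. Without control replicate 4 the difference was 0.11 and the unadjusted p 0.161. Leaving out mutant replicates 1 and 4 together gave 0.27, with an unadjusted p of 0.0373 and an adjusted p of 0.998 in limma.

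The other 16 ligands lay between -0.14 (Fgf1) and 0.18 (Fgf16), and their 95% intervals all reached 0, with outermost bounds of -0.39 and 0.39. Fgf1 and Fgf2, which lack a classical secretion signal, read 5.73 and 4.29 in controls and 5.59 and 4.27 in mutants. Mutant replicate 2 was the lowest array for Fgf1, at 5.21 against 5.61 to 5.87 on the other 7, and without it the difference was -0.02. Fgf8, Fgf17 and Fgf18 form 1 subfamily that patterns the early forebrain, and their differences were -0.10 ± 0.10, 0.08 ± 0.11 and 0.09 ± 0.09 (SE). Without mutant replicate 1 the Fgf8 difference was -0.01. Fgf7 and Fgf22, which organise presynaptic terminals in the hippocampus, differed by -0.13 ± 0.07 and -0.014 ± 0.058. Fgf22 was the steadiest member, with all 8 arrays between 6.09 and 6.16.

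Fgf3, Fgf4, Fgf5, Fgf6, Fgf16 and Fgf20, known mostly from the embryo, the hair follicle, muscle, heart and inner ear, had control means from 4.27 to 5.08. Of these Fgf16 had the largest difference, 0.18 ± 0.10 (SE), with 4.55 to 4.80 in controls and 4.61 to 5.09 in mutants, and it was 0.10 without mutant replicate 3. The hormone-like Fgf15, Fgf21 and Fgf23 act on bile acid synthesis, on the response to fasting and on phosphate, and read 4.41, 4.51 and 5.12 in controls. Fgf23 was 5.07 to 5.21 in controls and 5.17 to 5.30 in mutants, a difference of 0.13 ± 0.06 (SE, with a 95% interval of -0.01 to 0.27).

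**Figure D2:**
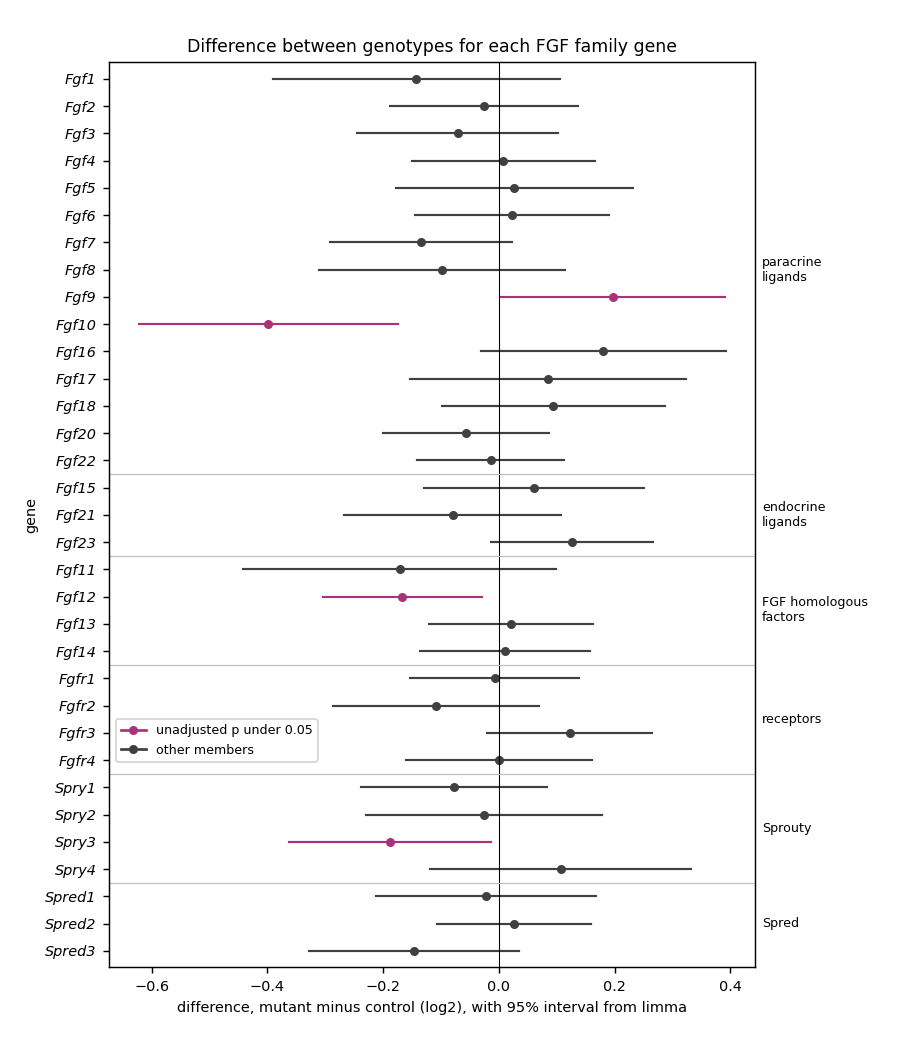
Mutant mean less control mean (x axis, log2) for each of the 33 genes (y axis, grouped by role), with points for the estimate and bars for limma's 95% interval. The intervals of 4 genes leave out 0, Fgf10, Fgf12 and Spry3 below it and Fgf9 above it, and that of Fgf10 reaches farthest, to -0.62.

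Among the 4 FGF homologous factors 2 differences were positive and 2 negative, with a median of -0.078, and 0 passed. Fgf12 read 8.96, 9.06, 9.13 and 8.99 in controls and 8.87, 8.83, 8.88 and 8.91 in mutants. The groups did not overlap, with 8.91 the highest mutant value and 8.96 the lowest control value. Its means were 9.04 ± 0.08 and 8.87 ± 0.03 (SD, n = 4), which differ by -0.17 ± 0.06 (SE), or 1.12-fold in favour of controls. The adjusted p in limma was 0.974 and the exact permutation p 0.0286, two-sided. Its difference ranged from -0.19 to -0.14 over 18 alternatives, and without control replicate 3 it was -0.14 with an unadjusted p of 0.0747. Without mutant replicates 1 and 4 together it was -0.18 with an unadjusted p of 0.0519.

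The remaining 3 homologous factors overlapped between genotypes. Fgf11 read 6.88, 7.07, 7.22 and 7.02 in controls and 6.91, 6.47, 7.14 and 6.98 in mutants. Mutant replicate 2 was its lowest array, as for Fgf1, and the difference was -0.17 ± 0.12 (SE, with a 95% interval of -0.44 to 0.10), or -0.04 without that array. Fgf13, which also binds microtubules in developing cortical neurons, read 9.47, 9.45, 9.55 and 9.43 in controls and 9.48, 9.40, 9.58 and 9.52 in mutants. Fgf14, mutated in a spinocerebellar ataxia, read 9.18, 9.12, 9.05 and 8.95 in controls and 9.14, 9.08, 9.06 and 9.05 in mutants. These 2 genes were steady, with differences of 0.02 ± 0.07 and 0.01 ± 0.07 (SE) and 95% intervals within -0.14 and 0.16.

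The channels that the homologous factors bind were read as a list of 8 sodium channel subunits, 7 of them tested. None passed, 5 differences were positive and 2 negative, and the median was 0.038. Scn1a, the subunit Nav1.1, read 6.17 to 6.53 in controls and 6.58 to 6.72 in mutants, a difference of 0.35 ± 0.08 (SE; limma adjusted p = 0.491) with no overlap. Scn3b, an auxiliary subunit, differed by 0.13 ± 0.07 and Scn2a, the subunit Nav1.2, by -0.07 ± 0.08. Scn1a and Fgf12 thus differed in opposite directions in these arrays, and neither passed over all genes.

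None of the 4 receptors passed the threshold, and the groups overlapped in each. Fgfr1, a receptor of neurons and progenitors, read 6.43, 6.40, 6.49 and 6.33 in controls and 6.31, 6.40, 6.51 and 6.40 in mutants. Fgfr2, which glia express, read 6.39, 6.59, 6.76 and 6.54 in controls and 6.56, 6.48, 6.41 and 6.40 in mutants. For Fgfr3, a receptor of astrocytes and their precursors, the values were 7.08, 7.25, 7.12 and 7.09 in controls and 7.27, 7.18, 7.30 and 7.28 in mutants. Mutant Fgfr3 was thus above 3 of the 4 controls on all 4 arrays and overlapped only with control replicate 2. Fgfr4, little used in the brain, read 4.38, 4.39, 4.49 and 4.44 in controls and 4.39, 4.41, 4.61 and 4.31 in mutants.

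The differences were -0.0076 ± 0.067 for Fgfr1, -0.11 ± 0.08 for Fgfr2, 0.12 ± 0.07 for Fgfr3 and 0.00032 ± 0.074 for Fgfr4 (SE, n = 4 per group), with an adjusted p of 1.00 in limma for each. Without control replicate 3 the Fgfr2 difference was -0.04. The 95% intervals of the receptors were -0.15 to 0.14, -0.29 to 0.07, -0.02 to 0.26 and -0.16 to 0.16. Changes beyond these bounds lie outside the intervals, while smaller ones in either direction could not be resolved with 4 arrays per group. A single value per receptor does not separate its splice forms, which set the ligands it binds. Astrocyte markers were read beside Fgfr3: 6 of 8 differences were positive, 0 passed, the median was 0.031, and the mean level of the list was 7.36 to 7.52 on control arrays and 7.33 to 7.52 on mutant arrays. Groups did not overlap in 1 of the 8 markers, Gfap, which was lower in mutants (-0.11 ± 0.06, SE). The part of astrocytes in the Fgfr3 difference was not tested.

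Sprouty genes encode inhibitors that FGF signalling itself induces and that block the step to Ras. Of the 4, 3 were lower and 1 was higher in mutants, with a median of -0.052 and 0 passing. Spry1 read 6.44, 6.52, 6.48 and 6.36 in controls and 6.37, 6.52, 6.23 and 6.36 in mutants, a difference of -0.08 ± 0.07 (SE). Spry2 read 5.75, 5.94, 5.60 and 5.79 in controls and 5.58, 5.72, 5.97 and 5.70 in mutants, a difference of -0.03 ± 0.09. Spry4 read 5.23, 5.16, 5.39 and 5.49 in controls and 5.59, 5.30, 5.21 and 5.60 in mutants, a difference of 0.11 ± 0.10. In these 3 genes the groups overlapped, and without mutant replicates 1 and 4 together the Spry4 difference turned to -0.06.

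Spry3, the X-linked Sprouty gene, had an unadjusted p of 0.0365 and an adjusted p of 0.989 in limma. It read 5.44, 5.31, 5.48 and 5.40 in controls and 5.01, 5.28, 5.35 and 5.23 in mutants. Mutant replicate 1 was the lowest, and mutant replicate 3 lay within the control range. Its means of 5.41 ± 0.07 and 5.22 ± 0.15 (SD, n = 4) differed by -0.19 ± 0.08 (SE; exact permutation p = 0.0571, two-sided). Mutant replicate 1 is one of the arrays with high Xist, and without replicates 1 and 4 the Spry3 difference was -0.09 with an unadjusted p of 0.296. Without mutant replicate 1 alone it was -0.12. The other X-linked members, Fgf13 and Fgf16, differed by 0.014 and 0.20 without both arrays, against 0.02 and 0.18 with them.

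Spred proteins bring neurofibromin to Ras at the membrane and so dampen ERK. Spred1 read 7.90, 8.15, 7.88 and 7.98 in controls and 8.11, 7.76, 7.93 and 8.0 in mutants. Spred2 read 8.38, 8.35, 8.41 and 8.32 in controls and 8.45, 8.36, 8.42 and 8.33 in mutants. Spred3 read 5.67, 5.53, 5.60 and 5.93 in controls and 5.58, 5.48, 5.53 and 5.55 in mutants. Values overlapped in all 3 genes, and control replicate 4 was the highest array for Spred3, whose difference was -0.07 without it. The differences were -0.02 ± 0.09, 0.03 ± 0.06 and -0.15 ± 0.08 (SE), and the adjusted p was 1.00 for each in limma. Spred2 was the only member with more than 1 probe set, and its other probe set read 7.15 ± 0.23 in controls and 7.09 ± 0.22 in mutants (SD, n = 4), also overlapping.

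**Figure D3:**
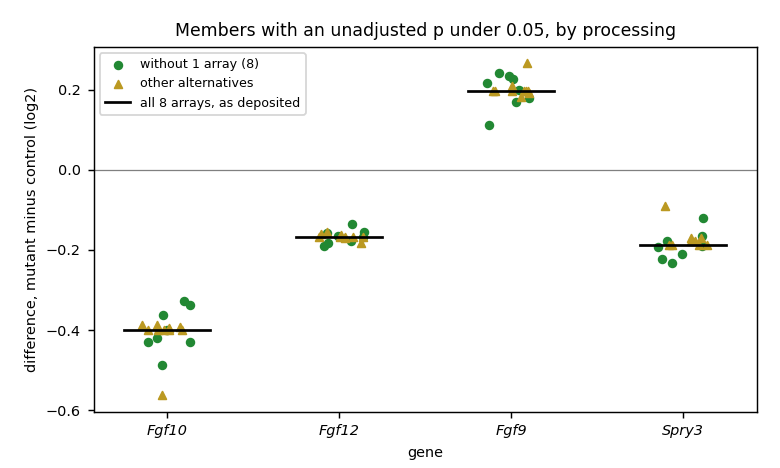
Mutant mean less control mean (y axis, log2) of the 4 members with an unadjusted p under 0.05 (x axis), with all 8 arrays as deposited (black bar), without each array in turn (circles) and under other alternatives of processing (triangles). No point crosses 0, Fgf10 spans -0.56 to -0.33, and Spry3 comes nearest to 0 at -0.09, without mutant replicates 1 and 4.

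The genes around the family were read as 5 lists with 95 genes listed, 86 of them tested. None of the 86 passed in either direction, 4 had an unadjusted p under 0.05 (4.65%, beside 4.91% of all genes) and 2 had groups that did not overlap (2.33%, beside 2.75%).

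ERK response genes are transcripts that ERK signalling can induce, though other signals can act on them too, and 18 were tested. None rose or fell past the threshold, 2 had an unadjusted p under 0.05, beside 4.91% of all genes, and groups did not overlap in 0. Of the 18 differences 16 were negative and 2 positive, beside 11047 negative among all 19938 genes. The median was -0.072, beside -0.0096 over all genes. Dusp4, Dusp5 and Dusp6 had the smallest p, and all 3 encode phosphatases that remove the activating phosphates of ERK or its relatives. Dusp6 read 7.61, 7.76, 7.54 and 7.67 in controls and 7.63, 7.44, 7.15 and 7.49 in mutants. Mutant replicate 1 lay within the control range and the other 3 mutants below it, a difference of -0.22 ± 0.10 (SE). Dusp5 read 5.44 to 5.65 in controls and 5.18 to 5.45 in mutants (-0.22 ± 0.08), and Dusp4 5.11 to 5.36 and 4.79 to 5.20 (-0.20 ± 0.09), with limma adjusted p from 0.932 to 1.00 for the 3 genes.

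The mean level of the 18 genes was 5.74 to 5.85 on the control arrays and 5.67 to 5.72 on the mutant arrays. These ranges did not overlap as deposited, nor after quantile normalization, median centring or cyclic loess, and this was so for 1 of the 14 lists examined. That comparison was chosen after the values were seen and has no test. Over the 18 alternatives the median stayed between -0.10 and -0.055, and with all 18 genes 14 to 16 differences were negative. Genes of the list with an unadjusted p under 0.05 numbered 0 to 3, with 0 when control replicate 2 was left out. Etv4 and Etv5, the ETS factors most used as a readout of FGF signalling, were nearer to 0 than the phosphatases: Etv4 differed by 0.04 ± 0.07 and Etv5 by -0.02 ± 0.07 (SE).

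**Figure D4:**
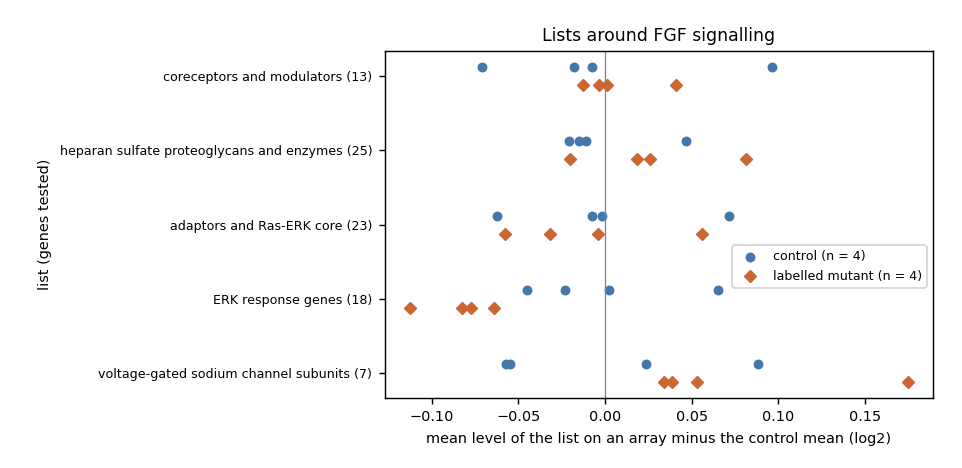
Mean level of each of 5 gene lists on each array, minus the mean of the controls (x axis, log2), for 4 control arrays (circles) and 4 arrays labelled mutant (diamonds), with the number of genes tested in parentheses (y axis). Control and mutant arrays overlap in 4 lists, and in the ERK response genes all 4 mutant arrays lie below the controls.

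The other lists were evenly placed or shifted little. Of 25 heparan sulfate genes tested, which build or carry the sugar chains that FGFs bind, 19 differences were positive and the median was 0.036. Hs6st1, which adds sulfate at the 6 position of the chains, was 8.48 to 8.68 in controls and 8.70 to 8.87 in mutants, with no overlap (0.19 ± 0.07, SE; limma adjusted p = 0.932). Sdc1, a syndecan, differed by 0.12 ± 0.07 and Ndst3, a sulfotransferase of the chains, by -0.14 ± 0.10. Adaptors and the Ras-ERK core had a median of 0.014 over 23 genes, with Map2k1 (MEK1) at -0.17 ± 0.09 and the Shc adaptors Shc2 and Shc3 at -0.12 ± 0.08 and -0.09 ± 0.07. Coreceptors and modulators had a median of 0.019 over 13 genes, with Flrt3, an FGF receptor partner, at 0.14 ± 0.11, the carrier protein Fgfbp1 at -0.12 ± 0.09 and the coreceptor Klb at -0.10 ± 0.10. None of these lists held a gene past the threshold in limma.

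Whether the Sprouty genes vary from pup to pup with other ERK outputs was asked across the 8 arrays, for Spry1, Spry2 and Spry4 against Etv5 and Dusp6. None of the 6 relations passed its test. The largest Pearson r was that of Spry1 with Dusp6, at 0.59 (exact permutation p = 0.143, adjusted over 6 pairs 0.822) and a Spearman rho of 0.17 (p = 0.703, adjusted 1.00). The largest rho was that of Spry4 with Etv5, at 0.33 (exact permutation p = 0.428, adjusted 1.00). Without the 2 arrays farthest from the Spry1 median, mutant replicates 2 and 3, r was 0.40. The other 5 Pearson values lay between -0.34 and 0.27, with exact permutation p from 0.404 to 0.911. Taken as deviations from the genotype means, the 6 values of r lay between -0.45 and 0.51. The pooled r of -0.26 for Spry2 and Dusp6 joins unlike orders: arrays with more Spry2 had more Dusp6 among the 4 controls and less among the 4 mutants. That was seen after the values were known, and 4 arrays are too few for a correlation, so this contrast was not tested. All arrays share 1 platform and normalization, and 8 pups limit what such a relation can show.

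**Figure D5:**
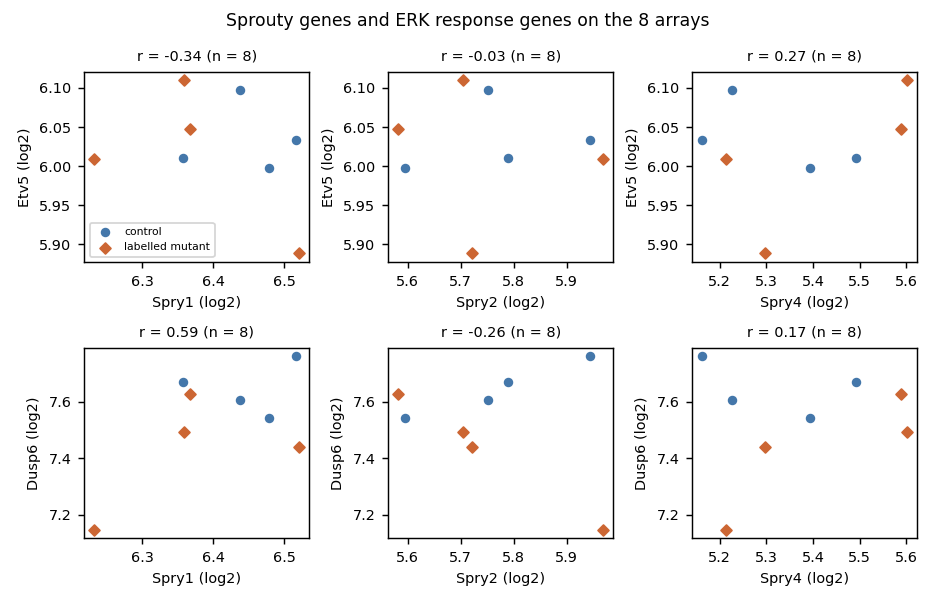
Log2 level of Spry1, Spry2 and Spry4 (x axes, columns) against Etv5 and Dusp6 (y axes, rows), with a point per array for 4 controls (circles) and 4 mutants (diamonds). No panel shows a relation past the test, and the highest Pearson r, 0.59 for Spry1 and Dusp6, has mutant replicate 3 at the lower left.

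Several members are neighbours in the genome, which the choice by name did not use. In the gene order of GRCm38.p6, Fgf3, Fgf4 and Fgf15 follow each other on chromosome 7 with 0 protein-coding genes between them, and their differences were -0.07 ± 0.08, 0.01 ± 0.07 and 0.06 ± 0.09 (SE). Fgf6 and Fgf23 are next to each other on chromosome 6, the chromosome of the Cre allele, with 542 protein-coding genes between Neurod6 and Fgf6, and differed by 0.02 ± 0.08 and 0.13 ± 0.06. In 2 places a ligand and a Sprouty gene lie close together, Fgf2 with Spry1 on chromosome 3 and Fgf1 with Spry4 on chromosome 18, each with 2 protein-coding genes between. Fgf2 and Spry1 differed by -0.03 ± 0.07 and -0.08 ± 0.07, and Fgf1 and Spry4 by -0.14 ± 0.11 and 0.11 ± 0.10. None of these neighbours had an unadjusted p under 0.05.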

How the data were processed

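The deposited table holds log2 values of 35556 probe sets on each of 8 arrays. The authors used BRB-ArrayTools, per the labels; for its version, background correction and normalization, nothing is given in the sources used here. The log2 scale was read from the range of the values, 0.74 to 13.63. Array medians lay between 4.94 and 5.01. No detection calls are given, so dim genes are not marked, and the number of arrays limits the precision.

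Probe sets were named from the platform annotation, with symbols from GRCm38.p6; 21789 named 1 gene, and the one with the highest mean was kept for each of 19938 genes. The genotypes were compared by limma (version 3.58.1, R 4.3.3) on all arrays, with no covariate, two-sided tests and Benjamini-Hochberg adjustment over all genes, and the fit was tested on simulated data. The 4 members with an unadjusted p under 0.05 in limma were also tested by exact permutation, with no adjustment over members. Where 4 against 4 arrays do not overlap, that permutation test always gives its smallest p, 0.0286.

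The members follow from gene symbols; the choice of this family, the lists and the rule for named genes was made with earlier results of these data known. All array values are given for receptors, Sprouty, Spred and Fgf11 to Fgf14, and for ligands with an unadjusted p under 0.05 or groups that do not overlap; each list is shown by its 3 genes of smallest p. Of the 95 genes on the pathway lists 86 were tested, and the others were not analysed here. Replicates are separate pups per the design text.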

Additional observations from a re-analysis of the deposited data

Results flagged for a closer look

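In 3 of the 66 groups of 4 arrays examined (33 genes, 2 genotypes) 1 array stood apart from the other 3 by a gap that filled most of the group's range, and chance gives about 1 in 20. Fgf7 read 3.16 in control replicate 3, against 3.39 to 3.43 in the other controls. Fgf9 read 6.30 in control replicate 4, against 6.61 to 6.67 in the other controls, and its difference between genotypes was 0.11 without that array and 0.20 with it. Fgf22 read 6.16 in mutant replicate 3, against at most 6.10 in the other mutants and 6.15 in the highest control.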

How the results depend on the processing

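No member passed the threshold under any of the 18 alternatives in limma or at an adjusted p of 0.10, and the smallest adjusted p of any member was 0.242, for Fgf10 with the replicate number as a block. Members with an unadjusted p under 0.05 numbered 4, then 2 to 6 without each array in turn (2 without control replicate 4 or mutant replicate 1, 6 without control replicate 2), 2 without mutant replicates 1 and 4 together, 3 to 4 under the 3 normalizations and 5 with the replicate block. Fgf10 was among them in all 18 alternatives, Fgf12 in 16, Fgf9 in 11 of 18 and Spry3 in 8 of 17. Spry3 dropped out under each of the 3 normalizations and Fgf9 after quantile normalization, while Fgf23 entered after quantile normalization and cyclic loess. The share of all genes with an unadjusted p under 0.05 was 3.71% to 5.38% over the alternatives. Groups did not overlap in 2 members, in 1 after quantile normalization (Fgf12, with Fgf10 lost), in 4 without mutant replicates 1 and 4 together, and in 2 to 5 without each array (5 without control replicate 2, 4 without mutant replicate 2 or 4); of all genes 5.03% to 5.45% do not overlap with 7 arrays, and 12.3% without those 2 mutants, beside 12.1% of members. The median difference of the family was -0.014, between -0.033 and -0.00083 over the alternatives that change it, and stayed at -0.014 with the block. Of the 33 members 18 kept their direction throughout and 15 changed sign at least once, none of these with a difference over 0.11 with all arrays or an unadjusted p under 0.05 in any alternative. The filter on dim genes kept 18 members. Over all genes 13 passed, against 2 to 16 over the alternatives and 5 with the block. Same-numbered pups correlated at -0.012 to 0.16 in their deviations from the group means, and 1 of the 4 numbers were each other's best match, so the numbers were not treated as pairs.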

Other observations

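The ERK phosphatases in the ERK response list were looked at together after their values were seen. Besides Dusp4, Dusp5 and Dusp6, Dusp9 differed by -0.18 ± 0.10 (SE) and Dusp7 by -0.08 ± 0.07. All 5 were thus lower in the arrays labelled mutant, as were 16 of the 18 genes of the list they come from. In limma 0 passed the threshold and 2 had an unadjusted p under 0.05, beside 4.91% of all genes. These 2, Dusp5 and Dusp6, are the ones already counted for the list. Values of all 5 overlapped between genotypes.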
